A study of Mus musculus with 6 samples.

Results

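The genes described here encode transporters that move amino acids, glucose, lactate and related solutes across membranes. They were chosen by name alone, as all probes whose gene symbol is Slc1a, Slc2a, Slc3a, Slc5a, Slc6a, Slc7a, Slc16a, Slc36a, Slc38a or Slc43a followed by a number, which gave 126 probes for 89 genes out of 25697 probes for 17759 named genes on the array. Expression was measured in mouse embryonic stem (ES) cells of the line E14Tg2a, with 3 samples labelled control (source name FloRes) and 3 labelled REST KO (source name FloResCre), and each sample was hybridised to 1 Illumina MouseRef-8 v2 bead array. REST is a zinc-finger repressor that keeps many neuronal genes silent outside neurons, and the comparison asks how ES cells without it differ. Both genotypes share the E14Tg2a background. The labels do not give the number of clones behind each genotype, the deleted part of Rest, or whether the replicates were grown separately. The p-values therefore describe how much these 6 samples scatter, and that scatter may be technical.

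Transporters of the SLC families fall into roles. Facilitative glucose carriers (Slc2a) and monocarboxylate carriers (Slc16a) let glucose in and lactate and pyruvate through. Cationic and large neutral amino acids pass through the Slc7a proteins, some of which need a heavy chain of the Slc3a family to reach the membrane. The Slc1a and Slc6a families use sodium gradients to take up glutamate, neutral amino acids, glycine, GABA, monoamines, taurine and creatine, and many of their members end transmitter signals in the brain. Proton- and sodium-coupled carriers of the Slc36a and Slc38a families work at the plasma membrane and at the lysosome, where some of them report amino acid supply to mTORC1. Rapidly dividing ES cells rely on glucose, glutamine, leucine and arginine uptake, whereas neurons and glia use the transmitter carriers.

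Levels are log2 intensities after background correction and quantile normalization, and a probe was tested where its detection p was under 0.05 on at least 3 of the 6 arrays. Of the 126 transporter probes 38 were tested, for 33 genes, and a gene with several tested probes is read by its brightest one. No transporter was called. In limma's fit over all probes, the main fit, 0 of 38 passed an adjusted p of 0.05. Of the 11388 tested probes 1.27% did. The lowest adjusted p of a transporter was 0.076. The authors' deposited table comes from the same 6 arrays and also holds probes not tested here. It had 0 of 126 transporter probes past that threshold, and its share over all probes was not counted. A limma fit of the authors' log2 values over the 11388 probes called 332, with 0 of 38 transporter probes. In the main fit 8 of 38 transporter probes (21.1%) had an unadjusted p under 0.05, against 19.9% of all tested probes. Arrays of the genotypes did not overlap for 10 of 38 probes (26.3%), against 25.1% of all. Both shares lie near the background. Log2 fold changes (REST KO over control) were above 0 for 17 genes and below 0 for 16, with a median of 0.03, where the median over all 8636 tested genes was -0.01. In 3 genes the size of the difference exceeded 0.5 on the log2 scale, Slc2a8, Slc1a1 and Slc6a15. Missing the threshold is not evidence of equal levels, and 3 arrays per genotype limit the precision.

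**Figure D1:**
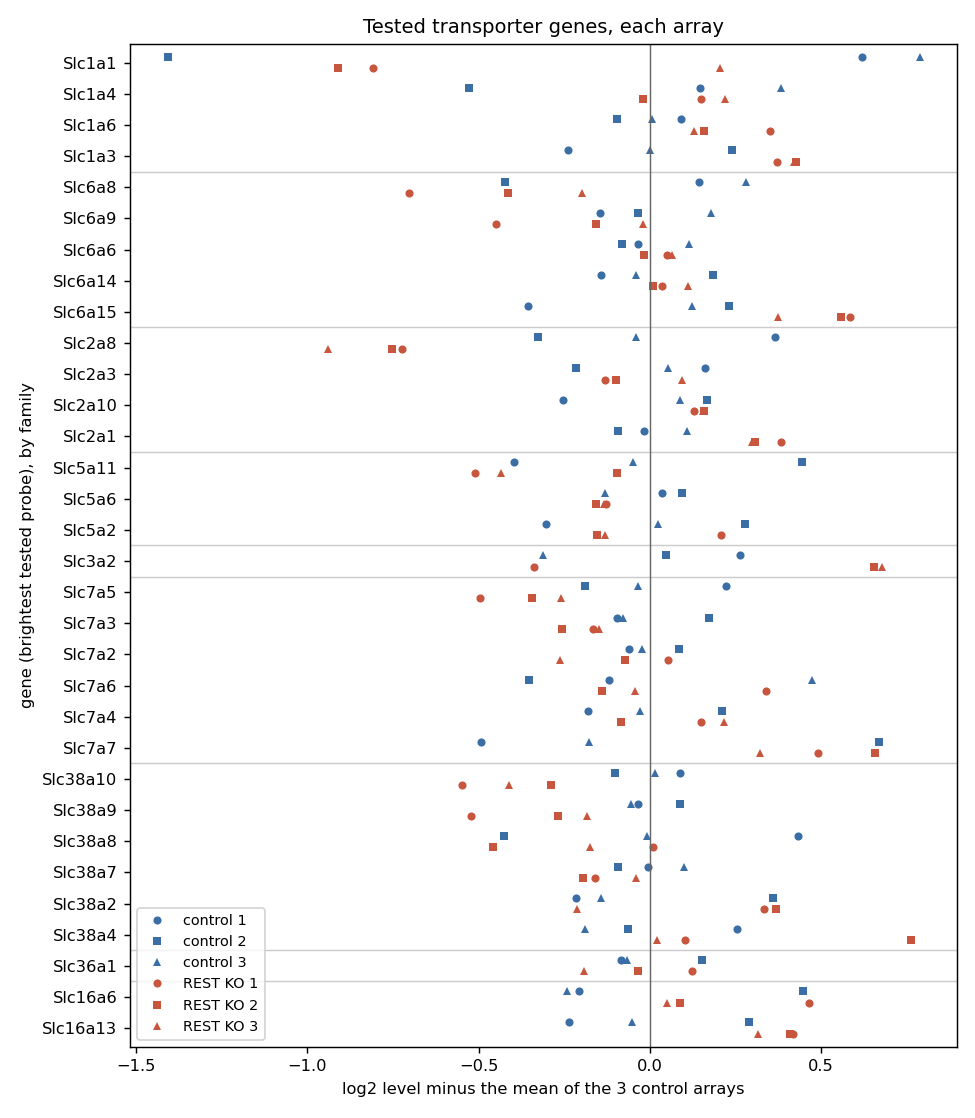
Levels of 32 of the 33 tested transporter genes on each array, as log2 level minus the mean of the 3 control arrays (x axis), grouped by family (y axis), with control arrays in blue and REST KO arrays in red. The 3 REST KO arrays of Slc2a8 lie below all controls and those of Slc1a3, Slc6a15 and Slc2a1 above them, while Slc1a1 spreads widely within both genotypes.

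Of the genes not tested, 47 were detected on no array and 9 on only some. The undetected ones included glial and neuronal carriers such as the astrocyte glutamate carrier Slc1a2, the choline carrier Slc5a7, the dopamine and serotonin carriers Slc6a3 and Slc6a4 and the glycine carrier Slc6a5. They also included carriers of general use, among them the glutamine carrier Slc1a5, the cationic carrier Slc7a1, the cystine carrier Slc7a11 and the glutamine carrier Slc38a1. A probe without signal on these arrays gives only a bound on the transcript. The lactate carriers Slc16a1 and Slc16a3 were detected on 1 control array and on no REST KO array. Slc38a5, a glutamine and histidine carrier, was detected on 2 control arrays and no REST KO array. Its levels were 6.26, 5.47 and 6.00 in control replicates 1 to 3 and 5.29, 5.25 and 5.24 in REST KO replicates 1 to 3, the latter all at background. The authors' deposited table gives it a log2 fold change of -0.38 with an adjusted p of 0.111.

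The members were sorted, from general knowledge, into carriers typical of neurons and glia, carriers typical of ES and other dividing cells, and carriers used in both. Of 19 neuronal-type genes 13 were detected on no array and 4 were tested, among them Slc1a3, Slc1a6 and Slc6a15. All 4 had a log2 fold change above 0, with a median of 0.31, and none passed. Of 19 ES-cell genes on the array 13 were tested, 8 above and 5 below 0, with a median of 0.05, and none passed. The 5 tested genes used in both had a median of -0.04. The difference between the first pair of medians was 0.26. With no filter on detection, over all 38 genes of these lists, it was 0.03, and over the 10 genes with a detection p under 0.01 on every array it was 0.37. The neuronal-type median rests on 4 genes, and the tested set holds only genes with signal on at least 3 arrays.

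Array by array, the median of the neuronal-type genes less that of the ES-cell genes, each gene taken relative to its own mean over the 6 arrays, was -0.23, 0.02 and -0.12 in control replicates 1 to 3. In REST KO replicates 1 to 3 it was 0.22, 0.15 and 0.13. The genotypes did not overlap, and control replicate 2 lay nearest the REST KO arrays. This difference rests on 4 neuronal-type genes, 3 of which did not overlap singly, where 25.1% of all tested probes did not. The lists were written with earlier results of these data known, and the difference was not tested.

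**Figure D2:**
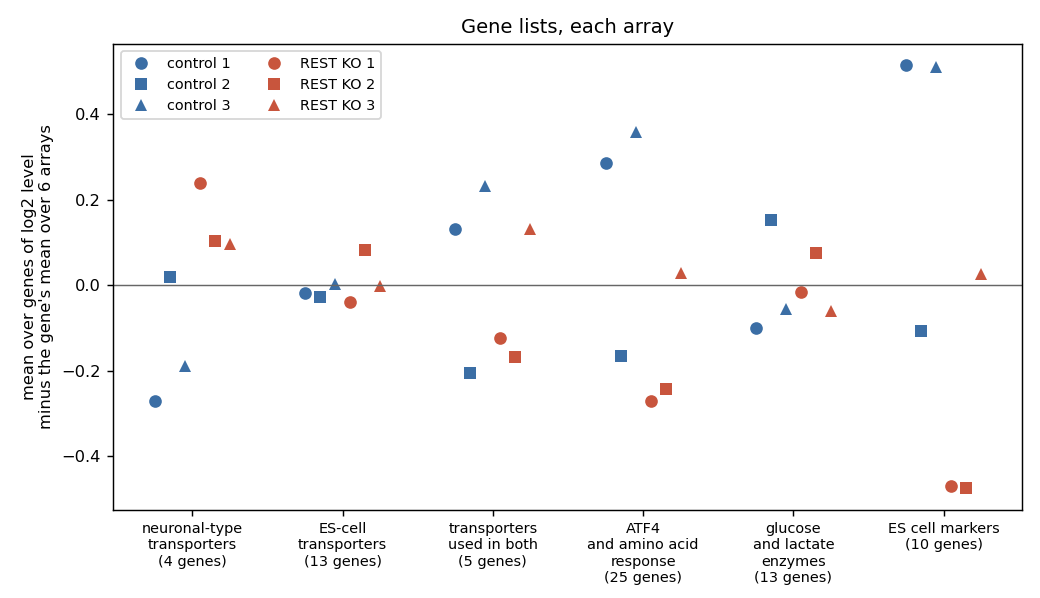
Mean over the tested genes of each list of the log2 level minus that gene's mean over 6 arrays (y axis), for 6 gene lists (x axis), with control arrays in blue and REST KO arrays in red. Neuronal-type transporters lie at or above 0.10 on the REST KO arrays and at or below 0.02 on the controls, ES-cell transporters stay between -0.04 and 0.08, and control replicate 2 lies among the REST KO arrays on the ATF4 list.

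Among the glutamate carriers, Slc1a3, the glial carrier GLAST on chromosome 15, was at 9.23, 9.71 and 9.47 in the controls and at 9.84, 9.90 and 9.89 in REST KO cells. All REST KO arrays were above all controls, with control replicate 2 closest. The log2 fold change was 0.41 ± 0.14 (SE, n = 3 per genotype, limma adjusted p = 0.165). Slc1a6, the carrier of cerebellar Purkinje cells, was low throughout, at 6.13, 5.94 and 6.05 in the controls and 6.39, 6.20 and 6.17 in REST KO cells, without overlap (0.21 ± 0.11, adjusted p = 0.329).

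Slc1a1, the glutamate and cysteine carrier of neurons and epithelia on chromosome 19, split the arrays another way. It stood at 7.10, 5.07 and 7.27 in the controls and at 5.67, 5.57 and 6.69 in REST KO cells, so that control replicate 2 had the lowest value of all and REST KO replicate 3 lay close to the other controls. It was detected on 2 control arrays and 1 REST KO array, so background values enter its fold change of -0.51 ± 0.59 (adjusted p = 0.675). The same 3 arrays, control replicates 1 and 3 and REST KO replicate 3, were the highest for 5 of 10 ES cell marker genes (Klf4, Esrrb, Zfp42, Nanog and Dppa5a), against 12.3% of all 8636 genes and 4 of 33 transporters (12.1%). Dppa5a differed little, at 15.76 to 15.82 on all arrays, so its order carries little weight. The other 5 markers did not follow Slc1a1, among them Utf1 and Fgf4, which were highest in control replicate 2. This likeness was noticed after the values were seen and was not tested. Slc1a4, a carrier of serine, alanine and other small neutral amino acids, had 0.12 ± 0.23, with control replicate 2 again lowest at 8.92 and the other 5 arrays between 9.43 and 9.84.

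In the Slc6a family 6 of 17 genes were tested. Slc6a15, a neutral amino acid carrier of brain neurons on chromosome 10, stood at 8.05, 8.64 and 8.53 in the controls and at 8.99, 8.96 and 8.78 in REST KO cells. The arrays did not overlap and the log2 fold change was 0.51 ± 0.17 (adjusted p = 0.164). A dimmer probe of the gene gave 0.09 ± 0.11. Slc6a8, which imports creatine, was at 10.60, 10.04 and 10.74 in the controls and at 9.76, 10.04 and 10.26 in REST KO cells. Control replicate 2 lay among the REST KO arrays, and the fold change was -0.44 ± 0.21 (adjusted p = 0.298). The taurine carrier Slc6a6 differed little, between 12.28 and 12.48 on all arrays (0.03 ± 0.10). Slc6a9, the glycine carrier GlyT1, had -0.21 ± 0.15, and Slc6a14, a carrier of many neutral and cationic amino acids, had 0.05 ± 0.12.

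Glucose carriers differed in direction. Slc2a8, a carrier that sits mostly on intracellular membranes, had the largest difference of the 33 genes. The gene lies on chromosome 2. Its tested probe was at 7.80, 7.11 and 7.40 in the controls and 6.72, 6.69 and 6.50 in REST KO cells. Every array detected this probe. Its other probes were not tested, being detected on no array (-0.16) and on 1 control array (-0.15). The log2 fold change of the tested probe was -0.81 ± 0.18, with the lowest adjusted p of the transporters (0.076). In the authors' deposited table the same probe had -0.48 with an adjusted p of 0.0625. Slc2a1, the general glucose carrier GLUT1 on chromosome 4, was at 13.46, 13.38 and 13.58 in the controls and at 13.86, 13.78 and 13.77 in REST KO cells. The 3 REST KO arrays were above the controls with little spread, and the log2 fold change was 0.33 ± 0.10 (adjusted p = 0.139). With a trended, robust variance limma called it (adjusted p = 0.0357), in a fit that called 3.2% of all probes and only this 1 of 38 transporter probes. Slc2a3, the glucose carrier GLUT3 of neurons and of early embryos, did not separate the genotypes (14.28 ± 0.19 and 14.24 ± 0.12, log2 fold change -0.04 ± 0.13). Slc2a10 had 0.15 ± 0.13. Of the sodium-coupled Slc5a genes, Slc5a6, a vitamin carrier, had -0.14 ± 0.10, the inositol carrier Slc5a11 had -0.35 ± 0.22 and the glucose carrier Slc5a2 had -0.03 ± 0.18, the last pair each detected on 3 of 6 arrays.

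**Figure D3:**
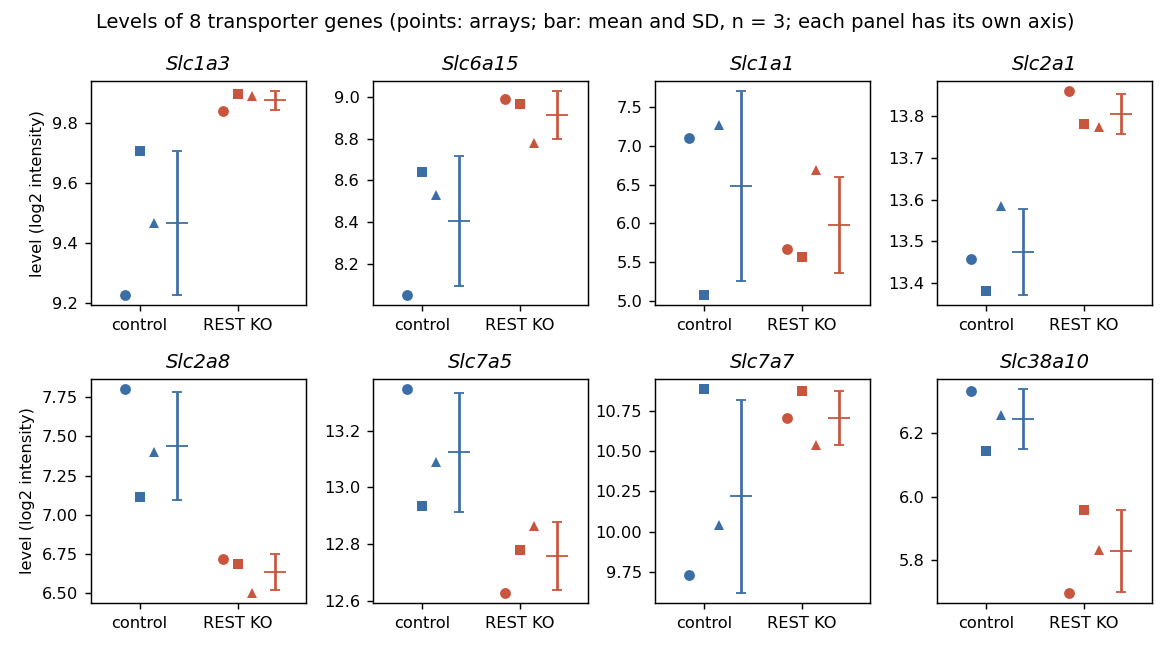
Levels (log2 intensity, y axis, own scale in each panel) of 8 transporter genes in control (blue) and REST KO (red) samples, each point 1 array and each bar the mean and SD of 3 arrays. The genotypes separate for Slc1a3, Slc6a15, Slc2a1, Slc2a8, Slc7a5 and Slc38a10, and overlap for Slc1a1 and Slc7a7, where control replicate 2 lies apart from the other controls. The 8 genes were picked for display and do not stand for the family. Arrays did not overlap for 10 of 38 tested transporter probes (26.3%), against 25.1% of all tested probes.

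Of the Slc7a amino acid carriers, Slc7a5, the large neutral amino acid carrier LAT1 that brings in leucine, was at 13.35, 12.93 and 13.09 in the controls and at 12.63, 12.78 and 12.86 in REST KO cells. The arrays did not overlap, by a small margin, and the log2 fold change was -0.37 ± 0.14 (adjusted p = 0.198). Its heavy chain partner Slc3a2 has 1 probe on the array, which was dim and detected on 2 arrays of each genotype (0.33 ± 0.29). Slc7a3, a cationic amino acid carrier, was at 13.02, 13.29 and 13.04 in the controls and at 12.95, 12.86 and 12.97 in REST KO cells (-0.19 ± 0.11, adjusted p = 0.388). Slc7a7, which exports cationic against neutral amino acids, was at 9.73, 10.89 and 10.04 in the controls and at 10.71, 10.88 and 10.54 in REST KO cells. Control replicate 2 was its highest array and the other controls its lowest, so the fold change of 0.49 ± 0.28 carried an adjusted p of 0.375. A dimmer Slc7a7 probe gave 0.38 ± 0.22. The remaining tested Slc7a genes differed little: Slc7a6 had 0.05 ± 0.23, Slc7a4 had 0.09 ± 0.14 and Slc7a2 had -0.09 ± 0.12.

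Of the 6 tested Slc38a genes 4 had a log2 fold change below 0 and 2 above. In 2 of them, Slc38a9 and Slc38a10, all REST KO arrays were below all controls. Over all tested probes 25.1% did not overlap, in either direction. The lysosomal arginine sensor Slc38a9, upstream of mTORC1, was at 7.96, 8.08 and 7.94 in the controls and at 7.47, 7.73 and 7.81 in REST KO cells (-0.33 ± 0.12, adjusted p = 0.199). Slc38a10 was at 6.33, 6.14 and 6.26 in the controls and at 5.70, 5.96 and 5.83 in REST KO cells, where 2 of 3 arrays detected it (-0.42 ± 0.11, adjusted p = 0.108). Slc38a2, the stress-responsive glutamine and alanine carrier SNAT2, had 0.16 ± 0.21 by its brightest probe and 0.35 ± 0.17 by another. Slc38a4, an imprinted gene that encodes a neutral and cationic amino acid carrier, had 0.30 ± 0.22, and 0.061 without REST KO replicate 2, whose 7.41 was its highest level. Slc38a7 had -0.13 ± 0.10 and Slc38a8, detected on 3 of 6 arrays, had -0.21 ± 0.23. The lysosomal proton-coupled carrier Slc36a1 had -0.03 ± 0.12. Of the monocarboxylate family, Slc16a13 was at 7.33, 7.86 and 7.52 in the controls and at 7.99, 7.98 and 7.88 in REST KO cells, without overlap (0.38 ± 0.15, adjusted p = 0.21). Slc16a6 had 0.20 ± 0.21 by its brightest probe and 0.23 ± 0.29 and -0.08 ± 0.16 by the others, which differ in sign.

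The outcome depended on control replicate 2. Without it limma called 10 of 38 transporter probes (26.3%), where it called 14.6% of all probes. At an unadjusted p under 0.05 the same fit had 14 of 38 transporter probes (36.8%), against 32% of all. By brightest probe the called ones were 4 genes higher in REST KO cells, Slc7a7 (log2 fold change 0.83, adjusted p = 0.0195), Slc16a13 (0.53, 0.0273), Slc1a3 (0.53, 0.029) and Slc6a15 (0.62, 0.0465), and 4 lower, Slc2a8 (-0.97, 0.0154), Slc6a8 (-0.65, 0.0407), Slc38a10 (-0.47, 0.0419) and Slc1a1 (-1.21, 0.0489). The dimmer probes of Slc7a7 and Slc38a2 made up the 10. With array weights, where control replicate 2 had a weight of 0.309 and each other array at least 1.03, 6 of 38 transporter probes were called (15.8%), against 12.2% of all. The estimate for Slc1a1 ran from -1.21 without that array to -0.11 without control replicate 3, and that for Slc7a7 from 0.83 to 0.24 without control replicate 1. Without any other single array 0 transporter probes passed, in fits that called 0 probes of the whole array in 4 of 5 cases and 249 without control replicate 3. In these 5 fits 3 to 6 of 38 transporter probes (7.89% to 15.8%) had an unadjusted p under 0.05, against 12.7% to 18.3% of all probes. Over the tested genes control replicate 2 was the control nearest to the REST KO mean for 14 of 33 transporters (42.4%) and for 44.9% of all 8636 genes.

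**Figure D4:**
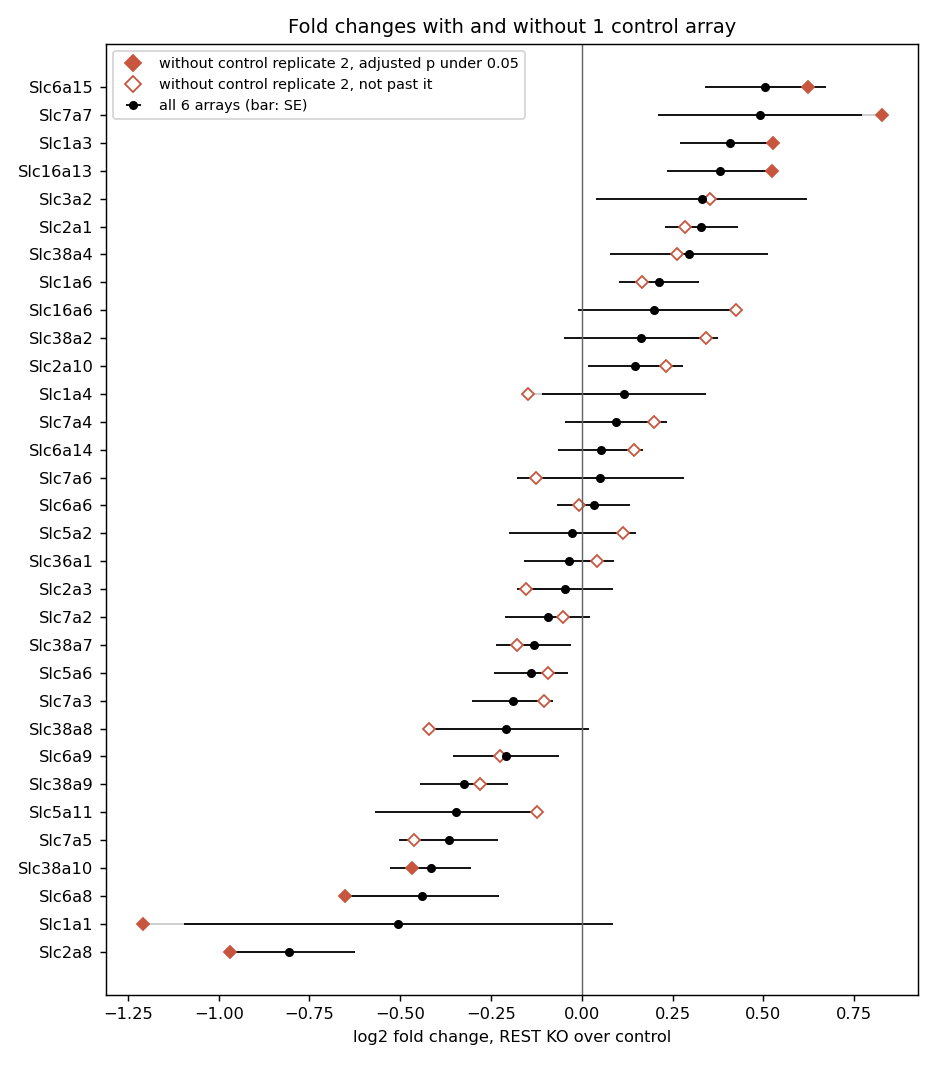
Log2 fold changes (x axis, REST KO over control) of 32 of the 33 tested transporter genes (y axis) from all 6 arrays (black, bar: SE) and without control replicate 2 (red diamonds, filled where the adjusted p was under 0.05). Filled diamonds mark 8 genes, from Slc1a1 at -1.21 to Slc7a7 at 0.83, and none of the black points passed.

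Marker genes place these arrays. All 10 ES cell markers were detected and tested, with a median log2 fold change of -0.64 and all 10 below 0, Dppa5a at only -0.0061, though none passed. Their mean level was 11.65, 11.03 and 11.65 in the controls and 10.67, 10.66 and 11.16 in REST KO cells. Of 11 neuronal markers on the array 6 were detected nowhere, Tubb3, Snap25, Syt1, Nefl, Elavl4 and Dcx. The 5 tested ones had mean levels of 7.05 to 8.32 in the controls and 8.64 to 8.65 in REST KO cells, with a median difference of 0.51, and none passed. Of 9 extraembryonic endoderm markers on the array 5 were tested, 2 above and 3 below 0, with a median of -0.24. Dab2 (0.71) and Amn (0.11) were above 0, and Lama1 (-1.31), Gata6 (-0.24) and Sox7 below. Of these Sox7 was called lower (limma adjusted p = 0.0239). No REST KO array detected it, so it met the detection filter through the control arrays alone. Of 10 fibroblast markers 8 were detected on no array, and of 10 astrocyte and oligodendrocyte markers 5, including Gfap, Aqp4 and Olig2. The 2 tested genes of each had medians of -0.01 and 0.19, and none passed. The part of these markers in the transporter values was not tested, and in bulk RNA fewer cells of a type cannot be told apart from less RNA per cell.

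Many amino acid carriers are targets of ATF4, a transcription factor made when amino acids run short or translation is stressed, so its other targets were read beside them. Of 25 tested genes of the ATF4 and amino acid response none passed, 22 were below 0 and 3 above, with a median of -0.31, where 52.3% of all genes were below 0. An unadjusted p under 0.05 was reached by 7 genes on the lower side and 2 on the higher side, together 36% of the list against 20.4% of all genes. The mitochondrial one-carbon enzyme gene Mthfd2 was at 9.36, 9.20 and 9.43 in the controls and at 8.58, 8.78 and 8.98 in REST KO cells (-0.55 ± 0.13, adjusted p = 0.0893), and Shmt2, which makes glycine from serine in mitochondria, was lower without overlap (-0.50 ± 0.12, adjusted p = 0.088). Sesn2, a leucine sensor, had -0.38 ± 0.09 (adjusted p = 0.0886), and the secreted glycoprotein gene Stc2 had 0.60 ± 0.12 (adjusted p = 0.0643). In the stress genes Ddit3, Trib3, Nupr1 and Chac1 the arrays overlapped. Chac1, which degrades glutathione, was at 12.23, 10.81 and 12.31 in the controls and at 10.77, 10.74 and 11.58 in REST KO cells, so the same 3 arrays were highest as for Slc1a1, as in 14 of the 25 genes (56%). The asparagine synthetase gene Asns had little difference (-0.01 ± 0.17). Without control replicate 2, 13 of the 25 were called lower and 2 higher, in a fit that called 14.6% of all probes.

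The letters TGATGCAA, the core of the elements that ATF4 binds with its partners, were searched on both strands in promoters of RefSeq (GRCm38.p6, 250 bases before to 50 after each start). They occur in 0.895% of 32851 promoters and in 4 of 86 transporter promoters, where the same Slc7a7 stretch counts in more than 1. Counted by gene, they occur in 3 of the 63 transporter genes that have a promoter in that table. Of the ATF4 list they occur in 6 of the 25 genes that have one. A gene can have several promoters, so counts by gene are not on the scale of the share by promoter. The search was chosen after the expression values were seen. A match is a description of sequence and not a site of binding. The stretches show the matches of the 3 transporters and of 3 list genes with measured values, with the letters or their reverse complement in capitals, read 5′ to 3′ on the strand of the gene.
Slc7a11 (chr3:50443643-50443689, minus strand): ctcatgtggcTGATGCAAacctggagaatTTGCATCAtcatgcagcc
Slc1a4 (chr11:20332700-20332727, minus strand): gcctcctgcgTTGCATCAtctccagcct
Slc7a7 (chr14:54417928-54417955, minus strand): acctagaagcTGATGCAAcagcttcccc
Chac1 (chr2:119351039-119351066, plus strand): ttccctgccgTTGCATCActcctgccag
Nupr1 (chr7:126625563-126625590, minus strand): aagggccagaTTGCATCAgacagggctt
Vldlr (chr19:27216810-27216837, plus strand): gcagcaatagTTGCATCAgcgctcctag
Slc7a11 holds 2 copies facing each other, and its probe was detected on no array. Log2 fold changes of the others shown ran in different directions, above 0 for Slc1a4 and Slc7a7 and below 0 for Chac1 (-0.75 ± 0.42), Nupr1 (-1.05 ± 0.46) and the lipoprotein receptor gene Vldlr (-0.15 ± 0.34), none of which passed. The core of the RE1 element that REST binds, CAGCACC and GGACAG separated by 2 bases, was found in 12 of 32851 promoters (0.0365%) and in none of the 63 transporter genes, which says only that these letters are not in these windows.

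Other genes around transport were read in the same way. Of 22 tested genes of nutrient sensing at the lysosome none passed, 10 were above and 12 below 0, with a median of -0.09. Arrays did not overlap for 4 genes higher and 7 lower in REST KO cells, where 25.1% of all tested probes did not. The lowest adjusted p was that of Sesn2 (-0.38 ± 0.09, adjusted p = 0.0886). Rragd, a Rag GTPase, had 0.85 ± 0.22 (adjusted p = 0.102) and the arginine sensor gene Castor1 had 0.36 ± 0.10 (adjusted p = 0.122). Of 6 tested partners and regulators of transporters none passed. Txnip, an arrestin that promotes removal of glucose carriers from the membrane, was at 11.32, 11.33 and 11.42 in the controls and at 10.81, 10.70 and 10.94 in REST KO cells, well separated (-0.54 ± 0.11, adjusted p = 0.0586). The kinase gene Sgk1, which keeps carriers at the surface, had 0.50 ± 0.14, and Nedd4l, a ubiquitin ligase that removes them, had -0.46 ± 0.13 (adjusted p = 0.111 and 0.115). Of 13 glucose and lactate enzymes none passed, 7 were above and 6 below 0. Pfkp, a phosphofructokinase, had -0.52 ± 0.09 (adjusted p = 0.0521), and Ldha, the lactate dehydrogenase, had 0.51 ± 0.23 with control replicate 2 (14.15) among the REST KO arrays (14.04 to 14.17) and the other controls at 13.24 and 13.42.

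Of 9 tested genes of transmitter synthesis and vesicular loading 1 passed, where 1.27% of all tested probes did. Slc17a6, the vesicular glutamate transporter VGLUT2, was detected on no control array (5.08, 5.47 and 5.39) and on all REST KO arrays (7.03, 7.01 and 6.40). In the latter its level was at least 2.04-fold higher, with a limma adjusted p of 0.0274. It met the detection filter through the REST KO arrays alone, the group where it was higher. Of the other vesicular carriers, Slc17a7 had 0.17 ± 0.19 and the GABA and glycine carrier Slc32a1 had 0.36 ± 0.25. The cytosolic serine and glycine enzyme gene Shmt1 had -0.41 ± 0.12 (adjusted p = 0.127) and Aldh5a1, which clears GABA, had -0.53 ± 0.19 (adjusted p = 0.187). The GABA synthesis genes Gad1 and Gad2 were detected on no array.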

How the data were processed

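The mean intensity of each probe and array came from Illumina's BeadStudio without normalization, per the file headers. The deposited detection score rises with signal, and its difference from 1 served as detection p. The authors' log2 values equalled quantile normalized log2 intensities to within 5e-09 and served as an alternative. Log2 fold changes and p-values of the authors' deposited table, made with limma per the labels, are quoted only where named. Another 36 per-sample columns were not used.

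Intensities were corrected and quantile normalized with neqc (limma 3.58.1, R 4.3.3, offset 16) and tested with lmFit and eBayes on genotype over 11388 probes, two-sided, with Benjamini-Hochberg adjustment at 0.05. The fit was tested on simulated data with independent normal noise at each probe's residual SD. It recovered 20.9% of the probes changed by 0.5 on the log2 scale, 70.1% at 1 and 100% at 2. Most changes of 0.5 were therefore missed in this simulation. Of the member probes 116 were named by the authors' symbol and 10 by the target name, updated through RefSeq (GRCm38.p6). Arrays detected 42.5% to 44.9% of probes, with 40 to 40.2 beads per probe on average. Members, lists and the rule for named genes (called members, the largest changes, all tested members of the 3 transporter lists, and up to 3 genes of each other list by adjusted p) were chosen with earlier results of these data known. The promoter letters, Klf4, Esrrb, Zfp42, Nanog, Dppa5a, Utf1, Fgf4, Map2, Stmn2, Sox7, Dab2, Amn, Lama1, Gata6, the further ATF4 targets, Ldha, Slc17a7, Slc32a1, Slc38a5 and transporters outside that rule were chosen after their values were seen. All arrays lie on 1 chip, controls on positions A to C and REST KO on D to F, so position and genotype cannot be told apart. The labels do not say whether replicate numbers pair the samples. Deviations of same-numbered arrays correlated at -0.27, 0.34 and 0.36, which does not settle it, and the main fit used genotype only. Single values of 1 tested transporter gene and 1 promoter are not reported here.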

Additional observations from a re-analysis of the deposited data

How the results depend on the processing

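Over the whole array limma called 145 probes, and 332 with the authors' values, 274 with an offset of 50, 50 with no filter, 364 with a trended robust variance, 1386 with array weights, 0 with the replicate block (2376 at an unadjusted p under 0.05) and 0 to 1668 with 1 array left out, the highest without control replicate 2. Transporter genes called higher numbered 1 with the trended robust variance (Slc2a1), 3 with array weights and 0 to 4 with 1 array left out. Those called lower numbered 2 with array weights and 0 to 4 with 1 array left out. The replicate block, which treats same-numbered arrays as pairs, called no transporter. Other normalizations and filters called 0. The median of neuronal-type less ES-cell transporters was 0.26, 0.028 with no filter, 0.37 with the stricter filter, 0.20 with the authors' values, and 0.22 to 0.32 with 1 array left out. Of 466 values of 32 genes under 15 alternatives 19 reversed sign, in 8 genes, Slc38a8 (-0.21 with all arrays) and 7 with a size of 0.12 or less: Slc6a6 (-0.024 with median scaling, -0.0051 with array weights), Slc1a4 (-0.085), Slc7a6 (-0.088), Slc36a1 (0.033) and Slc5a2 (0.066) with array weights. With 1 array left out the ranges were -0.15 to 0.036 for Slc2a3, -0.0076 to 0.091 for Slc6a6, -0.15 to 0.31 for Slc1a4, -0.020 to 0.14 for Slc6a14, -0.12 to 0.29 for Slc7a6, -0.11 to 0.044 for Slc36a1, -0.18 to 0.11 for Slc5a2 and -0.42 to 0.0082 for Slc38a8. Leaving out 1 array turned the sign or moved the value by over 1.5 times in 23 of 32 genes. Among those that kept their sign, ranges were -1.21 to -0.11 for Slc1a1, 0.24 to 0.83 for Slc7a7, 0.061 to 0.43 for Slc38a4, 0.16 to 0.67 for Slc3a2, 0.020 to 0.23 for Slc2a10, -0.54 to -0.12 for Slc5a11, 0.055 to 0.35 for Slc38a2 and 0.069 to 0.42 for Slc16a6. The cause of these moves was not tested. All alternatives were planned, except the counts of called genes of the ATF4 list without control replicate 2, which were added after seeing the data.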
